A study of Mus musculus with 9 samples.

Results

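The Fos, Jun and Egr immediate early genes were followed in ribosome-associated RNA of CA3/CA2 PV INs. The members were a list of 10 genes: Fos, Fosb and Fosl2 of the Fos family, Jun, Junb and Jund of the Jun family, and Egr1, Egr2, Egr3 and Egr4 of the Egr family. They were found by matching the Ensembl identifiers of the counts to mouse symbols, and they make up 10 of the 37620 genes in the files. All 10 were among the 15069 genes tested, which had a CPM (counts scaled to library size) of 1 or more in some sample.

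Mice 2 months old with the genotype PV-Cre; Rpl22HA/HA received lentivirus in DG, carrying either a non-target shRNA (shNT) or an shRNA against Ablim3 (shRNA), and tissue was taken 2 weeks later. There were 5 shNT and 4 shRNA samples, and the tissue of 6 mice, males and females together, was pooled for each. In both groups the Cre driver restricts the HA tag on the ribosomal protein RPL22 to cells that have expressed parvalbumin, and an antibody to the tag pulls down their ribosomes with the bound RNA, to which other cells may add RNA that sticks. The target cells of the shRNA were in DG and the RNA came from PV INs of CA3/CA2, so the level of Ablim3 in these samples does not check the labels: it ran from 12.1 to 22.6 CPM in shNT and from 13.7 to 21.7 CPM in shRNA.

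Immediate early genes are transcribed within minutes of a stimulus from factors that are already in the cell, such as SRF with its TCF partners and CREB, which are driven in neurons by calcium and the Ras and MAP kinase cascade. FOS and JUN proteins pair through leucine zippers to form AP-1, whereas EGR proteins bind GC-rich sites through zinc fingers. In neurons these genes are widely used as markers of recent activity, and Jund stands apart among them because its RNA is abundant in unstimulated cells.

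With edgeR's quasi-likelihood test, none of the 10 genes passed an FDR under 0.05 with at least a 1.5-fold difference, in either direction. In all genes tested, 1.74% were called higher in shRNA and 0.0133% were called lower. Without adjustment, 5 of the 10 had a p under 0.05: Fosl2, Jun, Egr1 and Egr3 were higher in shRNA and Jund was lower, against 20.7% of all genes tested that were higher at that level and 13.4% that were lower. The FDR lay between 0.05 and 0.1 for 4 of them (Fosl2, Jun, Jund and Egr3), as it did for 21.5% of all genes tested. Every shRNA sample was above every shNT sample for 2 of the 10 (Fosl2 and Jun), an arrangement found in 8.97% of all genes tested, and the opposite arrangement was found for 0 of the 10, against 6.68%.

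The log2 fold change (shRNA against shNT) was positive for 7 of the 10 genes and negative for Fos, Fosb and Jund, beside 57.9% of all genes tested with a positive value. Its median was 0.27 over the 10 genes and 0.11 over all genes tested. By family, the median was -0.12 for Fos, 0.18 for Jun and 0.47 for Egr, where all 4 values were positive. The choice of test set how many members were called. The likelihood ratio test and the exact test of edgeR and DESeq2 each called 3 of the 10 higher (Fosl2, Jun and Egr3) and 0 lower. These tests called 11.2%, 11.0% and 10.2% of all genes higher and 3.60%, 3.54% and 5.57% lower. With limma voom and sample quality weights, 4 were called higher (Egr1 as well, with 15.3% of all genes) and 2 lower (Fos and Jund, with 4.10% of all genes).

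**Figure D1:**
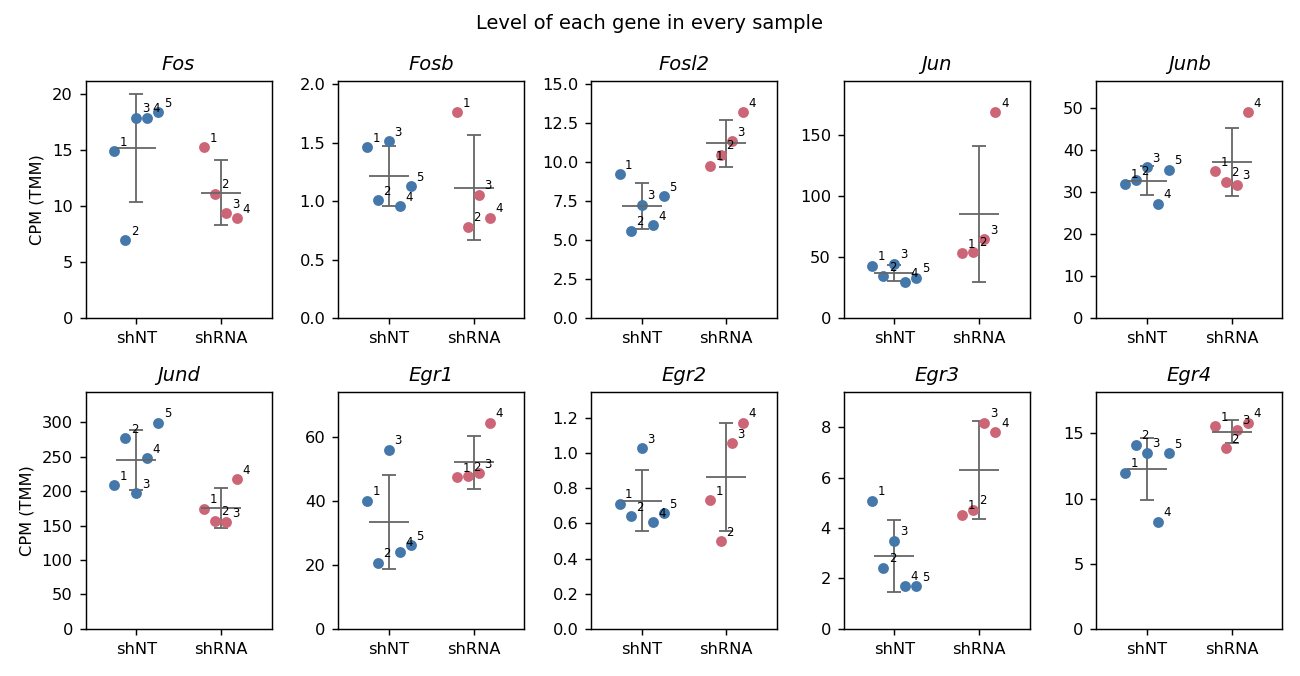
Level of each gene in CPM (normalized with TMM, vertical axes from 0) in every shNT (blue) and shRNA (red) sample, with the replicate number beside each point and the group mean ± SD in gray. Groups are apart for Fosl2 and Jun and overlap for the other 8 genes, and shRNA replicate 4 holds the highest value of Jun at 169 CPM.

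Libraries that stand apart bear on these values. Gene counts per sample ran from 18281719 to 34578837. Reads outside annotated exons made up 9.77% to 18.6% of uniquely aligned reads in shNT and 12.4% to 27.2% in shRNA, with shRNA replicate 4 at the top. Summed CPM of the 7 astrocyte markers was 1048 to 1196 in shRNA replicates 1 to 3 and 3906 in replicate 4, and the 8 endothelial markers summed to 57.3 to 126.1 in the first 3 and 758 in replicate 4. The 8 PV IN markers were present in every sample, at a sum of 4403 to 7246 CPM in shNT and 2548 to 6244 in shRNA, with the lowest in shRNA replicate 4, and the log2 fold change was negative for 8 of 8. The 5 markers of CA3/CA2 pyramidal neurons summed to 539 to 1380 CPM in shNT and 1414 to 1792 in shRNA, without overlap, and 5 of 5 were positive. The 3 DG granule cell markers summed to 24.4 to 59.0 and 56.1 to 87.5 CPM, and the 7 oligodendrocyte markers to 779 to 2418 and 1479 to 3081 CPM. The 2 markers of oligodendrocyte precursors summed to 7.999 to 13.6 CPM in shNT and 16.2 to 31.2 in shRNA, without overlap, and 1 of them, Pdgfra, was called (log2 fold change 1.21, edgeR FDR 0.0403). The 3 choroid plexus markers summed to 3.23 to 6.08 and 7.07 to 9.79 CPM, also without overlap. No marker was at 0 reads in any sample. Immediate early genes are also expressed by these other cells, and the part of their RNA in the values below was not tested. In such pooled material, fewer cells of a type and less RNA per cell cannot be told apart.

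Jun, which encodes c-JUN, the founding AP-1 subunit, had the largest fitted log2 fold change of the 10 genes with all samples, an order that rests on shRNA replicate 4: without it Egr3 had 0.99 and Jun 0.62. The gene (ENSMUSG00000052684, mm9 chromosome 4, 94715725 to 94718913, minus strand) was covered by 585 to 3747 reads per sample. In the order of the replicate numbers, used throughout, the level was 43.1, 34.6, 44.7, 29.5 and 33.2 CPM in shNT and 53.0, 54.5, 64.6 and 169 CPM in shRNA. Every shRNA sample was above every shNT sample, and shRNA replicate 4 was far above the other 3. The means were 37.0 ± 6.56 (SD, n = 5) and 85.3 ± 56.0 (SD, n = 4) CPM, with a log2 fold change of 1.20 ± 0.33 (SE; 95% interval 0.49 to 1.92; edgeR quasi-likelihood FDR 0.0630). The exact two-sided permutation test of the log2 levels gave p = 0.00794, the smallest that the splits of 5 and 4 samples can give. Without shRNA replicate 4 the log2 fold change was 0.62 (edgeR FDR 0.0804). An antisense gene covers 7.28% of the exon bases of Jun. In counts made without regard to strand, reads on exons of both genes are set aside as ambiguous and are missing from Jun.

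Jund, which encodes the AP-1 subunit with the steadiest expression in most cells, had the lowest fitted log2 fold change of the 10 genes with all samples. It did not pass the test. The order depends on the samples kept: without shNT replicate 2 Fos had -0.62 and Jund -0.44, and without shRNA replicate 1 they had -0.69 and -0.55. The gene (ENSMUSG00000071076, mm9 chromosome 8, 73221638 to 73224515, plus strand) had 2939 to 9552 reads per sample, the most of the 10. It measured 209, 277, 197, 248 and 300 CPM in shNT and 175, 157, 155 and 218 CPM in shRNA. Replicates 1 to 3 of shRNA lay below every shNT sample, whereas replicate 4 lay among them. The fitted log2 fold change was -0.48 ± 0.18 (SE; 95% interval -0.87 to -0.10; edgeR FDR 0.0914), and the exact permutation p was 0.0476. That p was above 0.05 in 8 of the 9 sets with a sample left out. An antisense gene covers 18.9% of its exon bases, and reads on these are likewise missing from its counts.

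Junb, which encodes a subunit that activates transcription more weakly than c-JUN, showed little difference. The gene (ENSMUSG00000052837, mm9 chromosome 8, 87500811 to 87502617, minus strand) measured 31.97, 32.8, 35.9, 27.2 and 35.3 CPM in shNT and 35.0, 32.4, 31.8 and 49.0 CPM in shRNA. All shRNA samples but replicate 4 fell within the shNT range. Its log2 fold change was 0.18 ± 0.16 (SE; 95% interval -0.17 to 0.53; edgeR FDR 0.424), and it was -0.002 without shRNA replicate 4.

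Since AP-1 dimers draw on all 3 Jun genes, their levels were also set against each other within each sample, a comparison chosen after the values were seen and given with no test. The ratio of Jun to Jund was 0.206, 0.125, 0.227, 0.119 and 0.111 in shNT and 0.303, 0.347, 0.417 and 0.777 in shRNA. All 4 shRNA samples were above all shNT samples, and the mean log2 ratio differed by 1.51, or by 1.23 without shRNA replicate 4. The ratio of Jun to Junb ran from 0.940 to 1.35 in shNT and from 1.52 to 3.45 in shRNA, and that of Junb to Jund from 0.110 to 0.182 and from 0.200 to 0.225, both without overlap. These 3 pairs were the only ones without overlap among 12 pairs of genes formed within the Fos, Jun and Egr families. How often ratios of other gene pairs show no overlap was not computed. Among CPM per kb of exon summed over the 3 genes, Jun made up 10.3% ± 2.81 (SD, n = 5) in shNT and 23.1% ± 7.56 (SD, n = 4) in shRNA, whereas Jund made up 73.9% ± 5.10 and 57.8% ± 6.36. Jund was thus the most abundant of the 3 per length in the mean of both groups.

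**Figure D2:**
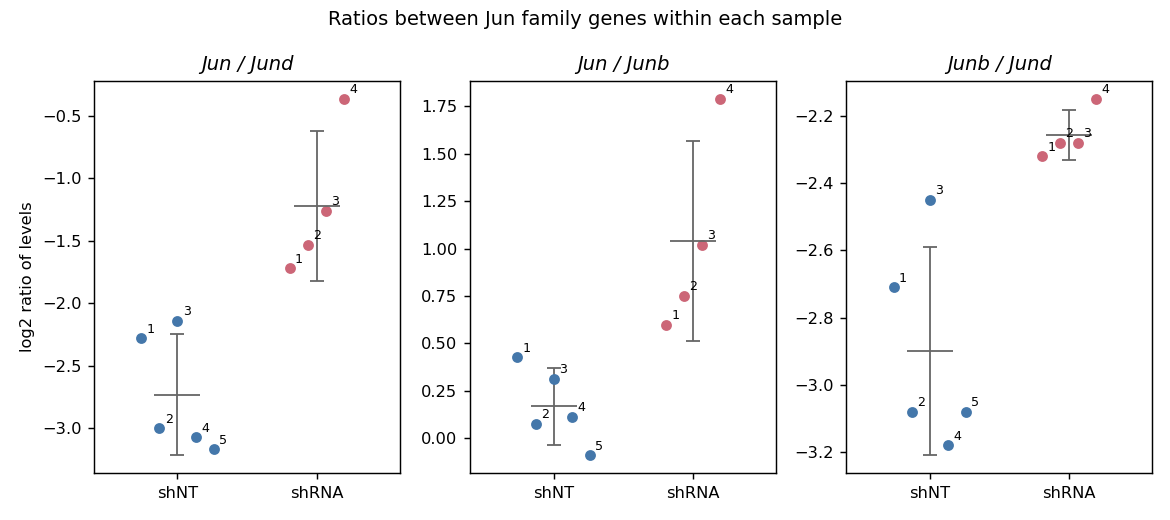
Log2 ratio of the levels of Jun to Jund, Jun to Junb and Junb to Jund in each shNT (blue) and shRNA (red) sample, with replicate numbers and the group mean ± SD in gray (vertical axes differ and do not start at 0). In all 3 panels the shRNA samples lie above the shNT samples, and shRNA replicate 4 is the highest.

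In the Fos family, whose proteins cannot pair with each other and need a JUN partner, no gene passed the test. The groups did not overlap for Fosl2 and overlapped for Fos and Fosb. Fosl2, which encodes FRA2, a subunit that lacks the strong activation domain of c-FOS, lies on mm9 chromosome 5 (ENSMUSG00000029135, 32438845 to 32460204, plus strand) and had 118 to 295 reads per sample. Its level was 9.21, 5.60, 7.27, 5.95 and 7.81 CPM in shNT and 9.77, 10.5, 11.3 and 13.2 CPM in shRNA. The closest samples of the 2 groups were shNT replicate 1 and shRNA replicate 1. The means were 7.17 ± 1.46 (SD, n = 5) and 11.2 ± 1.49 (SD, n = 4) CPM, a log2 fold change of 0.64 ± 0.19 (SE; 95% interval 0.22 to 1.06; edgeR FDR 0.0662), with an exact permutation p of 0.0159. Without shNT replicate 1 the gene was called (log2 fold change 0.75, edgeR FDR 0.0453). With a correction for exon length in each sample the log2 fold change was 0.40 (edgeR FDR 0.144).

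Fos, which encodes c-FOS, the subunit most used as a marker of active neurons, lies on mm9 chromosome 12 (ENSMUSG00000021250, 86814840 to 86818223, plus strand) and had 152 to 587 reads per sample. It measured 14.9, 6.98, 17.9, 17.9 and 18.4 CPM in shNT and 15.3, 11.1, 9.39 and 8.93 CPM in shRNA. Replicates 3 to 5 of shNT were above every shRNA sample, replicate 1 lay just below shRNA replicate 1, and replicate 2 was the lowest of all 9 samples. Fitted over all samples, the log2 fold change was -0.44 ± 0.28 (SE; 95% interval -1.06 to 0.17; edgeR FDR 0.270), and the exact permutation p was 0.262. The log2 fold change came to -0.69 without shRNA replicate 1 (edgeR FDR 0.148) and to -0.36 without shRNA replicate 4. Without shNT replicate 2, the lowest sample, it was -0.62 (edgeR FDR 0.0834), the lowest FDR with any sample left out.

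Fosb, which encodes FOSB and, by splicing, the long-lived ΔFOSB, lies on mm9 chromosome 7 (ENSMUSG00000003545, 19888070 to 19895394, minus strand) and was near the filter, with 19 to 53 reads per sample. It measured 0.958 to 1.51 CPM in shNT and 0.782 to 1.76 CPM in shRNA, and the groups overlapped in full. Its log2 fold change was -0.12 ± 0.34 (SE; 95% interval -0.87 to 0.62; edgeR FDR 0.817). The counts per gene do not separate the FOSB and ΔFOSB transcripts.

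As a share of CPM per kb summed over the Fos family, Fos made up 79.6% ± 5.97 (SD, n = 5) in shNT and 67.6% ± 6.53 (SD, n = 4) in shRNA. Fosl2 made up 16.1% ± 4.64 and 28.3% ± 7.07. The ratio of Fos to Fosl2 was 1.62, 1.25, 2.46, 3.01 and 2.36 in shNT and 1.56, 1.06, 0.828 and 0.676 in shRNA. The 2 groups overlapped, with shRNA replicate 1 within the shNT range and the other 3 below it.

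In the Egr family, Egr3 and Egr1 were higher in shRNA at an unadjusted p under 0.05. Egr3, which encodes a factor downstream of neuronal activity that acts on later target genes, lies on mm9 chromosome 14 (ENSMUSG00000033730, 70477252 to 70479964, plus strand) and had 34 to 173 reads per sample. It measured 5.09, 2.43, 3.50, 1.71 and 1.69 CPM in shNT and 4.52, 4.73, 8.18 and 7.80 CPM in shRNA. Only shNT replicate 1 reached the shRNA range. The means were 2.89 ± 1.43 (SD, n = 5) and 6.31 ± 1.95 (SD, n = 4) CPM, with a log2 fold change of 1.12 ± 0.36 (SE; 95% interval 0.33 to 1.91; edgeR FDR 0.0725) and an exact permutation p of 0.0397. Without shNT replicate 1 the log2 fold change was 1.43 and the gene was called (edgeR FDR 0.0392).

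Egr1, also known as Zif268, a gene tied to synaptic plasticity in the hippocampus, lies on mm9 chromosome 18 (ENSMUSG00000038418, 35020861 to 35024638, plus strand) and had 452 to 1631 reads per sample. It measured 40.0, 20.7, 55.9, 24.1 and 26.1 CPM in shNT and 47.3, 47.7, 48.6 and 64.4 CPM in shRNA. The shNT samples were spread widely, from replicate 2 at the bottom to replicate 3 inside the shRNA range, whereas 3 of the 4 shRNA samples were nearly level. The log2 fold change was 0.64 ± 0.27 (SE; 95% interval 0.04 to 1.23; edgeR FDR 0.126), and the exact permutation p was 0.0714.

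Egr4, a family member with expression largely in the nervous system, lies on mm9 chromosome 6 (ENSMUSG00000071341, 85461125 to 85463583, minus strand) and measured 11.98, 14.1, 13.5, 8.22 and 13.5 CPM in shNT and 15.6, 13.9, 15.3 and 15.8 CPM in shRNA. All but shRNA replicate 2 were above the shNT range. The log2 fold change was 0.30 ± 0.17 (SE; edgeR FDR 0.231), with an exact permutation p of 0.0556. Without shNT replicate 4, its lowest sample, the log2 fold change was 0.11.

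Egr2, also known as Krox20 and required for myelination by Schwann cells, lies on mm9 chromosome 10 (ENSMUSG00000037868, 66998223 to 67004936, plus strand) and had only 12 to 30 reads per sample. It measured 0.605 to 1.03 CPM in shNT and 0.498 to 1.17 CPM in shRNA, so the groups overlapped. For Egr2 the log2 fold change was 0.23 ± 0.37 (SE; edgeR FDR 0.679), and it ran from 0.02 without shRNA replicate 3 to 0.42 without shRNA replicate 2. At this depth the 95% intervals of Egr2 (-0.58 to 1.04) and Fosb (-0.87 to 0.62) held 0, and a difference of either sign within them stays possible.

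**Figure D3:**
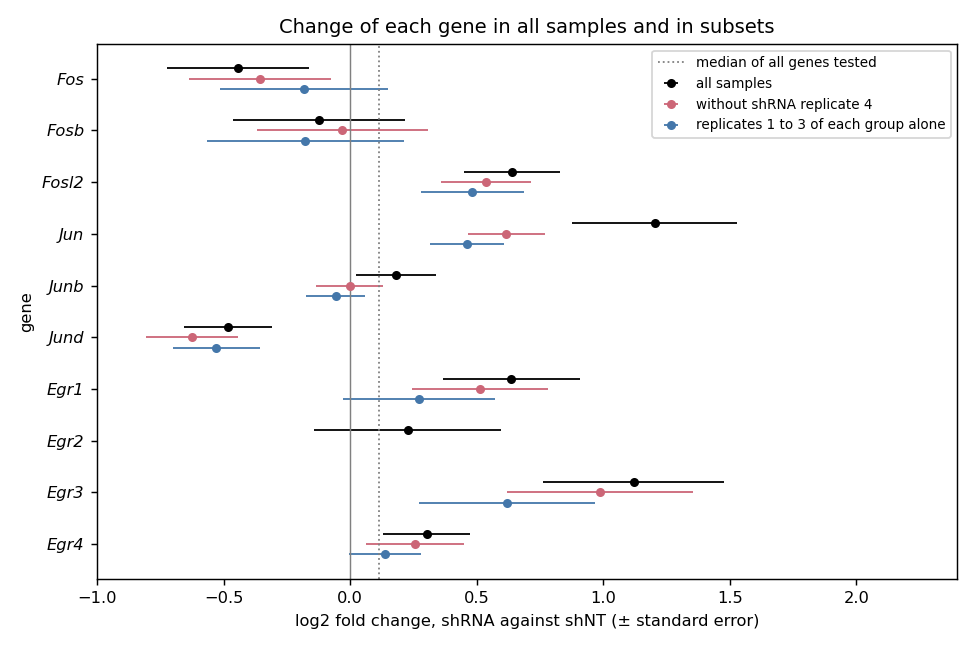
Log2 fold change of each gene (shRNA against shNT, horizontal axis) with its standard error, in all 9 samples (black), without shRNA replicate 4 (red) and in replicates 1 to 3 of each group alone (blue). The dotted line is the median of all genes tested, 0.11. Jun has 1.20 with all samples and 0.62 without shRNA replicate 4, and Egr2 has a value for all samples only because it missed the filter in the other 2 fits.

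The names of the deposited samples fall into a set of 6 (replicates 1 to 3 of each group) and a set of 3 (shNT replicates 4 and 5 and shRNA replicate 4). What the names mark is not stated. In the set of 6 alone 8 of the 9 genes that passed the filter kept the sign they had in the full data, all but Junb (-0.06), and Egr2 did not pass. The log2 fold change there was 0.46 for Jun, 0.48 for Fosl2, 0.62 for Egr3, 0.27 for Egr1, -0.53 for Jund and -0.18 for Fos, none called by edgeR (FDR 0.411 to 0.857 for these 6). The set of 3 has 1 shRNA sample and gave no value of its own.

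Per length of exon, the genes spanned a wide range of levels in shNT. The length includes the exon bases of Jun and Jund that antisense genes cover, so the levels of these genes may be too low. The mean CPM per kb was 85.5 ± 15.1 (SD, n = 5) for Jund, 18.1 ± 1.90 for Junb, 11.6 ± 2.06 for Jun, 10.8 ± 4.71 for Egr1, 6.47 ± 2.05 for Fos and 5.74 ± 1.12 for Egr4. Then came Egr3 at 1.96 ± 0.975, Fosl2 at 1.22 ± 0.249, Fosb at 0.323 ± 0.0681 and Egr2 at 0.215 ± 0.0506. The sample ranges of neighbors in this order overlapped for Jun and Egr1, Egr1 and Fos, Fos and Egr4, Egr3 and Fosl2, and Fosb and Egr2. The levels of Jund and Junb, Junb and Jun, Egr4 and Egr3, and Fosl2 and Fosb did not overlap. In shRNA the ranges of Jun (16.6 to 53.0 CPM per kb) and Junb (17.6 to 27.1) overlapped, and Jun was the lower of them in replicates 1 and 2. The ranges of Egr4 (mean 7.08) and Fos (mean 4.75) met at their edges.

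The promoters of Jun, Fosl2 and Fos are shown because the first 2 genes have groups that do not overlap, whereas Fos, the usual activity marker, has a negative value. RefSeq promoters (build GRCm38.p6) were found for 8 of the 10 genes, all but Egr1 and Egr3. In the 250 bases before each listed start, both strands were searched for TGACGTCA (the CRE bound by CREB), TGANTCA (the AP-1 site), GCGNGGGCG (the Egr site) and the CArG box bound by SRF. Of 32851 mouse promoters of this length, 1.55% held the CRE, 6.75% the AP-1 site, 4.70% the Egr site and 1.47% the CArG box. TGACG, a short form of the CRE that also lies within TGACGTCA (17.8% of promoters), and TGACATCA (2.93%) were added after the first counts were seen. Capitals mark each match.
Jun, chr4:95052223-95052472, minus strand: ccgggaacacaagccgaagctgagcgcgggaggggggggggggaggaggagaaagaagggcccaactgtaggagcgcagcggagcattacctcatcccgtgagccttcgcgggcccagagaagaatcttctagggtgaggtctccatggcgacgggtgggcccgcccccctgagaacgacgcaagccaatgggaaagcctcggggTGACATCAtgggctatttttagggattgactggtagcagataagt
Fosl2, chr5:32136222-32136471, plus strand: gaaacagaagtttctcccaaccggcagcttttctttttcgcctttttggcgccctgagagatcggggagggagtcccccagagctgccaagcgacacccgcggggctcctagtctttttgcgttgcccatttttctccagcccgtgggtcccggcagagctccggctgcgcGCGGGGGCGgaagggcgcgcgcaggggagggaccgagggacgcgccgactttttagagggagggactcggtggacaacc
Fos, chr12:85473640-85473889, plus strand: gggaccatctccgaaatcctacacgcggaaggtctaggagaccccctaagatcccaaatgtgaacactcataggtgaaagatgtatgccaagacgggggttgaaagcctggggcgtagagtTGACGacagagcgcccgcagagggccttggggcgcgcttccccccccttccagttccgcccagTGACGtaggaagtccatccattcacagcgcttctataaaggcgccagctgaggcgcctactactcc

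The Jun promoter held TGACATCA at bases -45 to -38 from the start, and Fosl2 held GCGGGGGCG at -79 to -71. The Fos promoter held TGACG at -129 to -125 and at -66 to -62. Fosb also held an Egr site (-50 to -42) with a TGACG (-60 to -56), Junb a TGACG (-106 to -102), and Egr4 a pair of TGACG on the minus strand (-177 to -173 and -109 to -105). Within the 250 bases searched, CArG boxes were found for Egr2 alone, before 4 of its 5 listed starts. Starts 3, 4 and 5 share the same box, CCATATATGG, and start 2 has another, CCTTTTTTGG. Before starts 3, 4 and 5 of Egr2 there was also a TGACG on each strand. Sites further from a start were not searched, and Egr1 and Egr3 had no promoter to search. No searched motif was found before the listed start of Jund. The 2 genes with an Egr site, Fosl2 and Fosb, had log2 fold changes of 0.64 and -0.12.

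The other genes of the pathway were counted by lists. Of all genes tested, 57.9% had a positive log2 fold change (median 0.11), 1.74% were called higher and 0.0133% lower. Groups did not overlap for 8.97% of them with shRNA higher and for 6.68% with shRNA lower. None of the 9 tested members of 14 other AP-1 genes of the bZIP class was called, and 3 of 9 had a positive log2 fold change (median -0.25). Maf, which encodes a large MAF factor of PV and somatostatin interneurons, measured 68.4 to 93.7 CPM in shNT and 31.3 to 60.9 CPM in shRNA, without overlap (log2 fold change -0.59, edgeR FDR 0.0754). Atf7, which encodes a relative of ATF2, had a log2 fold change of 0.65 (edgeR FDR 0.0885). A second identifier with the same symbol does not overlap it, and the values are those of the longer gene alone. Atf3, a stress-induced partner of c-JUN, was at 0.555 to 0.872 CPM in shNT and at 0.422 to 0.569 in shRNA replicates 1 to 3, with 1.58 in replicate 4.

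None of the 17 inducers of immediate early genes (SRF, TCF and CREB factors with their coactivators) was called, while 15 of 17 had a positive log2 fold change (median 0.46). The FDR lay between 0.05 and 0.1 for 7 of them, against 21.5% of all genes tested. For 3 of them every shRNA sample was above every shNT sample, against 8.97% of all genes tested. Ep300, which encodes the coactivator p300, measured 19.3 to 37.9 CPM in shNT and 42.9 to 53.4 CPM in shRNA (log2 fold change 0.83, edgeR FDR 0.0503). Mkl2, which encodes an actin-regulated partner of SRF, measured 33.7 to 54.8 CPM in shNT and 55.1 to 102 CPM in shRNA (log2 fold change 0.74, edgeR FDR 0.0630). Srf itself had a log2 fold change of 0.13 and Creb1 one of 0.36, both with overlap; they were picked after their values were seen.

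In the Ras and MAP kinase cascade 0 of 22 genes were called and 14 of 22 had a positive value (median 0.09). Rasgrp1, which encodes a calcium- and diacylglycerol-responsive activator of Ras, measured 41.9 to 128 CPM in shNT and 143 to 216 CPM in shRNA, without overlap (log2 fold change 1.16, edgeR FDR 0.0638). Camk4, which encodes a nuclear kinase of CREB, had 39.4 to 51.5 and 58.7 to 73.6 CPM (log2 fold change 0.53, edgeR FDR 0.0544). Mapk3 (ERK1) was the one gene of the list below shNT without overlap, with a log2 fold change of -0.24.

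None of the 14 feedback regulators was called and 10 of 14 were positive (median 0.23). Nab2, which encodes a corepressor of EGR1, had a log2 fold change of 0.80 (edgeR FDR 0.0662). Other genes on the opposite strand cover 42.2% of its exon bases, and reads on these are missing from its counts. Btg2, an antiproliferative early gene, had 0.93 (edgeR FDR 0.120), with 34.6 CPM in shRNA replicate 4 and 8.88 to 14.2 CPM in the other 3.

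Of 20 other activity-induced genes, 1 was called and 16 were positive (median 0.57). Ptgs2, which encodes the inducible cyclooxygenase COX-2, rose from 3.34 ± 1.18 (SD, n = 5) to 8.41 ± 1.52 (SD, n = 4) CPM, with a log2 fold change of 1.33 ± 0.28 (SE; edgeR FDR 0.0433). It was between 1.85 and 4.73 CPM in shNT and between 6.77 and 9.92 CPM in shRNA, and shRNA replicate 4 was its lowest shRNA sample. This call was lost when any of shNT replicates 3 to 5 or shRNA replicates 1 and 3 was left out, where 0 genes of the lists were called, and likewise with library size only, upper quartile scaling, the replicate block, the covariate for reads outside exons and exon-length offsets. Klf10, an early gene of TGF-β signaling, had a log2 fold change of 1.12 and Nr4a2, an orphan nuclear receptor gene, one of 1.05 (edgeR FDR 0.0544 for each). Arc and Npas4, picked after their values were seen, had 1.19 and 1.34 (edgeR FDR 0.0630 and 0.0651) without overlap. Npas4 was near the filter, at 0.605 to 1.92 CPM in shNT and 2.32 to 4.22 CPM in shRNA. Without adjustment, 10 of the 20 were higher at an edgeR p under 0.05 (20.7% of all genes tested) and 2 were lower (13.4%). The 2 lower genes were Gadd45b and Gadd45g, with log2 fold changes of -0.50 and -0.47 (edgeR FDR 0.123 and 0.107).

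Among 9 tested genes of 11 described as targets of AP-1 or EGR factors, none was called and 5 of 9 were positive (median 0.03). Cdk5, a neuronal kinase gene, had a log2 fold change of -0.40 (edgeR FDR 0.103) and Vgf, a neuropeptide precursor gene, one of -0.24 (edgeR FDR 0.483).

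**Figure D4:**
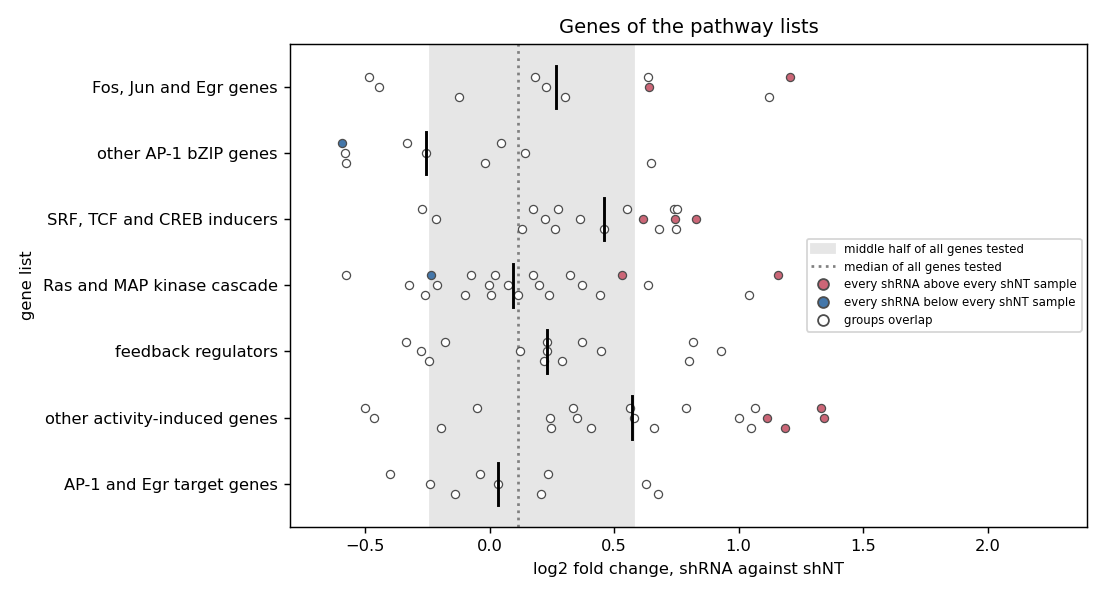
Log2 fold change (shRNA against shNT) of each gene tested in the Fos, Jun and Egr families and in 6 pathway lists, with the list median as a black bar. Red and blue points have groups that do not overlap, the gray band holds the middle of all genes tested (from the lower to the upper quartile) and the dotted line is their median at 0.11. List medians run from -0.25 (other AP-1 genes) to 0.57 (other activity-induced genes).

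Across the 9 samples, the log2 levels of several members moved alike. Pearson's r was 0.87 for Egr3 and Fosl2, 0.84 for Fosl2 and Jun, 0.83 for Egr1 and Egr3, and 0.82 for Jun and Junb, whereas it was -0.04 for Fos and Egr1. Jun and Junb were both highest in shRNA replicate 4, at 169 and 49.0 CPM, so their value leans on that sample. No r was computed without it. Jund had -0.76 with Egr3 and -0.74 with Egr1. These values describe 9 samples that share the group difference and the differences in other cells' markers given above. Among 9495 genes with a mean of at least 10 CPM, those most like Fos were Rxrb (r = 0.94), Smarce1 (0.94) and Itfg2 (0.94), and those most like Egr1 were Smg5 (0.98), Map3k7 (0.97) and Nufip2 (0.96). These are the highest of 9495 values over only 9 samples, with no chance level computed. Shared regulation was not tested.

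**Figure D5:**
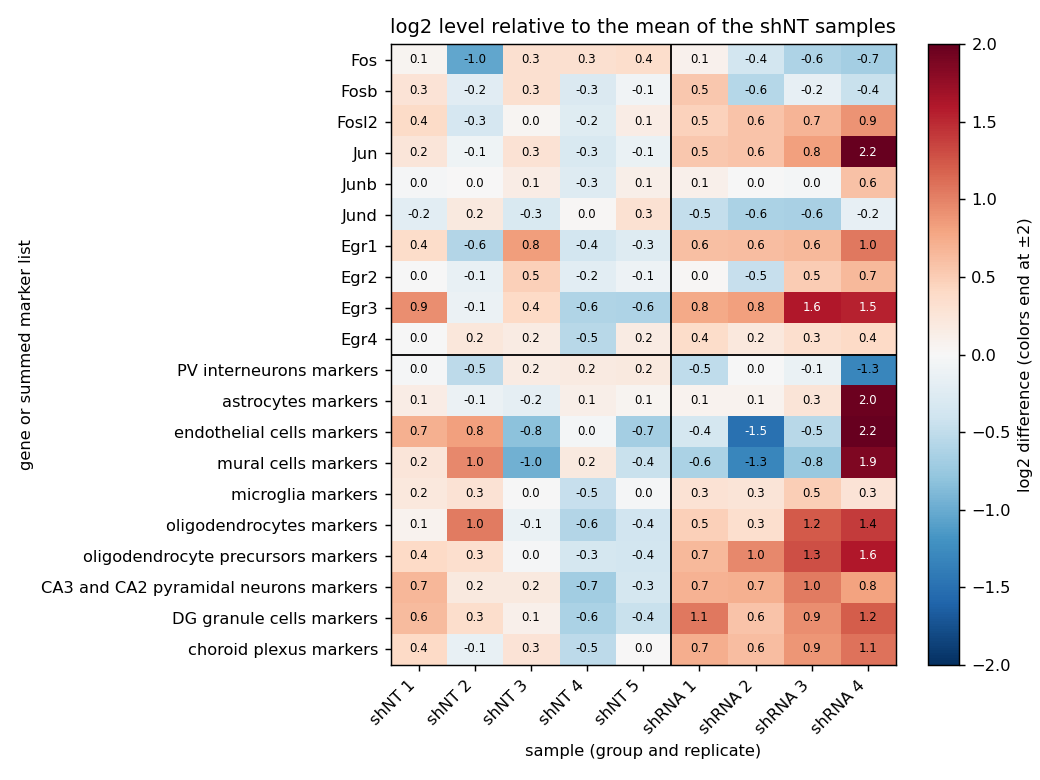
Log2 level of each gene (upper rows) and of the summed CPM of each cell type marker list (lower rows) in every sample, as the difference from the shNT mean, with the value printed in each cell. Jun, astrocyte and endothelial markers are highest in shRNA replicate 4. Fosl2, Jun, Egr1, Egr3 and Egr4 are positive in all 4 shRNA samples. So are the markers of astrocytes, microglia, oligodendrocytes and their precursors, pyramidal neurons, DG granule cells and choroid plexus.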

How the data were processed

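Ribosome-associated RNA of CA3/CA2 PV INs was sequenced in 5 shNT and 4 shRNA samples. The authors aligned reads to mm9 with STAR and deposited raw counts of uniquely aligned reads per gene, made with HTSeq 0.6.0 without regard to strand. Without strand, reads on exons of overlapping antisense genes cannot be assigned to either gene. Ambiguous reads, which are in no gene's counts, made up 1.36% to 1.78% of uniquely aligned reads per sample. Rows that name no gene (22.0% to 34.5% of all rows' counts per sample) were kept out of library sizes and tests. The release of the authors' annotation is not given in the sources used here, and names, positions and exon lengths came from GENCODE vM1 of the same build, which named 37205 of 37620 identifiers.

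A CPM of 1 or more in some sample was required (15069 genes kept, 22551 removed). After TMM normalization, counts were tested with edgeR 4.0.16 (quasi-likelihood, group as the only term, R 4.3.3), and genes were called at a Benjamini-Hochberg FDR under 0.05 and at least 1.5-fold over all genes tested. The biological coefficient of variation was 0.303. Log2 levels used a prior count of 2. Single levels were compared by an exact two-sided permutation test over all ways to divide them into 5 and 4, whose p-values were not adjusted over the list. Depth was 18281719 to 34578837 gene counts, which leaves counting error under the replicate spread for most members. The exceptions are Fosb and Egr2, and Egr4 in shRNA. There Egr4 had 290 to 468 reads and 15.1 ± 0.861 CPM (SD, n = 4), a spread near its counting error. Alternatives were other edgeR tests, DESeq2 1.42.0, limma 3.58.1 voom, other normalizations and filters, the replicate number as a block, the set of names, a covariate for reads outside exons, exon-length offsets and each sample left out. Scripts were tested on simulated data.

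The members and gene lists were chosen with earlier results of these data known. From each pathway list, the genes called (up to 6 with the lowest FDR) or, with fewer than 2 called, the 2 with the lowest FDR among those averaging at least 10 CPM were named. For Fos and Egr1 the 3 genes most like each by Pearson's r were also named. Genes outside this rule are Atf3, Srf, Creb1, Mapk3, Arc, Npas4, Gadd45b and Gadd45g, picked after their values were seen.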

Additional observations from a re-analysis of the deposited data

Results flagged for a closer look

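Within each group, the highest and lowest sample of each member, marker list and share of reads outside exons was compared with the rest of its group by Dixon's test. The search took in 66 groups of values, some of kinds not named here, and 9 had a sample far from the others. Chance gives about 1 in 20, or 3.3. Values of 1 library are not independent, and several of the 9 come from shRNA replicate 4. Among the members, shRNA replicate 4 had 169 CPM of Jun, where the rest had 53.0 to 64.6, and Egr1 was 64.45 CPM there against 47.3 to 48.6. Egr2 was 1.029 CPM in shNT replicate 3 against 0.605 to 0.711 in the other 4, on few reads. The same shRNA replicate 4 stood apart in the summed CPM of astrocyte markers (3906 against 1048 to 1196), endothelial markers (757.5 against 57.3 to 126.1) and mural cell markers (274.8 against 30.4 to 48.2). Microglia markers summed to 110.0 CPM in shRNA replicate 3 against 94.1 to 95.5 in the others. In shNT replicate 2, oligodendrocyte markers summed to 2418 CPM against 779 to 1226, and 18.57% of uniquely aligned reads lay outside exons against 9.77% to 11.3%. Whether the cells behind these markers supply the Jun and Egr1 reads of shRNA replicate 4 was not tested.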

How the results depend on the processing

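Among the members, 0 were called higher and 0 lower. The likelihood ratio test, the edgeR exact test and DESeq2 each called 3 higher, limma voom called 4 higher and 2 lower, leaving out a sample gave 0 to 2 higher (2 without shNT replicate 1) and 0 lower, and the likelihood ratio test without shRNA replicate 4, chosen after seeing the data, called 1 higher (Jun) and 1 lower (Jund). Among the pathway lists (1 higher, 0 lower), these 4 tests called 14, 14, 12 and 17 higher and 1, 1, 2 and 1 lower, leaving out a sample gave 0 to 9 higher, the likelihood ratio test without shRNA replicate 4 gave 9, no filter gave 5, CPM of at least 1 in 4 samples gave 2, the name set as a term gave 3 and leaving out shNT replicate 2 with shRNA replicate 4 gave 3. Over all genes (262 higher, 2 lower), the tests called 1688, 1659, 1532 and 2301 higher and 542, 534, 833 and 618 lower, no filter gave 501 and 14, leaving out a sample gave 0 to 1007 and 0 to 410, the likelihood ratio test without shRNA replicate 4 gave 767 and 64, and leaving out shNT replicate 2 with shRNA replicate 4 gave 678 higher. CPM of at least 1 in 4 samples gave 8 lower, and RLE size factors and the name set as a term gave 1 lower each. With library size only, upper quartile scaling, replicates 1 to 3 alone, reads outside exons as a covariate or exon-length offsets, 0 genes were called in either direction, in the pathway lists too. The cause was not tested.

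The replicate block gave 29 genes higher and 0 lower, with 0 members and 0 genes of the pathway lists. The labels do not say whether the replicate numbers pair the samples. Deviations of same-numbered samples correlated at -0.27, -0.64, 0.49 and -0.18. The shNT sample most like each shRNA sample had the same number for replicate 3 alone. These correlations cannot show how the samples were collected.

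The sign turned for Junb (0.18 in all samples) to -0.057 in replicates 1 to 3 alone, to -0.020 with reads outside exons as a covariate and to -0.0022 without shRNA replicate 4 (-0.0023 by the likelihood ratio test), and for Fosb to 0.019 without shRNA replicate 2. Over all samples left out in turn, Junb spanned -0.0022 to 0.24 and Fosb -0.51 to 0.019. Each turned value was within its standard error of 0. The log2 fold changes of the other 8 kept their sign in every alternative run: Jun spanned 0.46 to 1.37, Fosl2 0.40 to 0.75, Egr3 0.62 to 1.45, Egr1 0.27 to 0.84, Egr4 0.11 to 0.46, Egr2 0.02 to 0.42, Jund -0.68 to -0.40 and Fos -0.69 to -0.16. The exact permutation p of Egr3 was 0.0536 to 0.0893 in 8 of the 9 leave-one-out sets, and that of Jund 0.0571 to 0.0893 in 8 of 9. Egr2 missed the filter, and has no value, with CPM of at least 1 in 4 samples, in replicates 1 to 3 alone and wherever shRNA replicate 4 was left out. Depth limits Fosb and Egr2, with 12 to 53 reads per sample.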
